A study of Mus musculus with 6 samples.

Results

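The miR-297, miR-466, miR-467 and miR-669 families were followed in mouse liver. Members were all mature miRNAs whose name holds one of these 4 family numbers, whatever their letter, index or arm, and 67 of the 1546 miRNAs in the deposited values met this rule. The miR-466 family gave 28 names, miR-669 gave 20, miR-467 gave 13 and miR-297 gave 6. Liver small RNA libraries came from 3 NC mice, given a normal diet, and 3 MAFLD mice, given a high-fat diet, with 1 library per mouse. All were male C57BL/6 mice, 8 weeks old when the diets began, and the diets lasted 16 weeks. The study describes 6 mice per diet, so only some of them are represented here. The sample titles name a normal diet for NC and only MAFLD for the other group, and the high-fat diet is taken from the study. MAFLD stands for metabolic dysfunction-associated fatty liver disease, and the titles give no other difference between the groups. The comparison asks whether these miRNAs differ in level between the livers of the 2 diets.

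A miRNA is cut from a hairpin RNA, and either side of the hairpin, called the 5p or the 3p arm, can be kept as the mature strand. Its seed, the bases near the 5′ end, pairs with target mRNAs. Sfmbt2 encodes a Polycomb-group chromatin protein, is imprinted in the mouse with expression from the paternal copy in extraembryonic tissue, and carries in one of its introns a large set of near-identical miRNA hairpins found in rodents. These intronic miRNAs are known mainly for a role in the placenta, and their many copies make it hard to assign a short read to a single hairpin.

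The RefSeq annotation of GRCm38.p6 held mature sequences for 8 of the 67 members, and these are shown. The other 59 had none there, so the repeats and seeds described here are those of the 8 only. Each is written 5′ to 3′, and the capitals mark the seed, bases 2 to 8.
miR-466j: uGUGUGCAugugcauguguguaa
miR-466k: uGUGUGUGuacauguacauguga
miR-669n: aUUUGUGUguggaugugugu
miR-467h: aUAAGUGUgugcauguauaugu
miR-466i-3p: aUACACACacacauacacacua
miR-467f: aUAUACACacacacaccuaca
miR-466q: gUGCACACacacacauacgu
miR-467g: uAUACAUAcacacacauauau

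All 8 came from hairpins outside Sfmbt2. The first 4 were rich in UG dinucleotides, with 8 in miR-466j, 7 in miR-466k, 7 in miR-669n and 5 in miR-467h. The last 4 were rich in CA dinucleotides, with 7 in miR-466i-3p, 6 in miR-467f, 6 in miR-466q and 5 in miR-467g. No seed was shared, and the 8 sequences held 8 different seeds. A run of 4 CA dinucleotides (CACACACA) was searched on the mature strand, and it occurred in 4 of the 1679 mature names of the annotation (0.238%), all 4 of them members. A run of 4 UG dinucleotides (UGUGUGUG) occurred in 7 names (0.417%), and miR-466k and miR-669n were 2 of these. The 59 members without a sequence in this annotation were not searched, so these are not counts for the whole family. Reads on the 8 were few, from 3 in all 6 libraries together for miR-467g and miR-467h to 11 for miR-669n.

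In the GRCm38 annotation the 4 families had 82 hairpin genes, of which 72 lay inside Sfmbt2 and 10 elsewhere. Sfmbt2 covers chr2:10370440-10595253. Its hairpins ran from 10466663 to 10518279, a stretch of 51.6 kb, and none of the 72 overlapped an exon. They all fell in a single intron at 10461473 to 10523944, which is intron 10 of transcript Sfmbt2-201 and intron 11 of Sfmbt2-205. Of the 72, 71 were annotated on the plus strand, the strand of Sfmbt2, and the strand of 1 was not matched by symbol. By family they were 29 Mir669, 24 Mir466, 14 Mir467 and 5 Mir297 hairpins.

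Starts of neighbouring Mir467 hairpins were a median of 2.45 kb apart, with a range from 1.91 to 4.88 kb. The median was 2.43 kb for Mir466, with a range from 0.281 to 4.88 kb, and 2.42 kb for Mir669, with a range from 0.266 to 5.51 kb. Single names were spread over many copies, with 12 hairpin genes for miR-669a, 10 for miR-467a and 8 for miR-466b. The 12 include Mir669a-3, which was also matched to the separate name miR-669a-3-3p. A read of such a name cannot be placed at one of its copies.

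**Figure D1:**
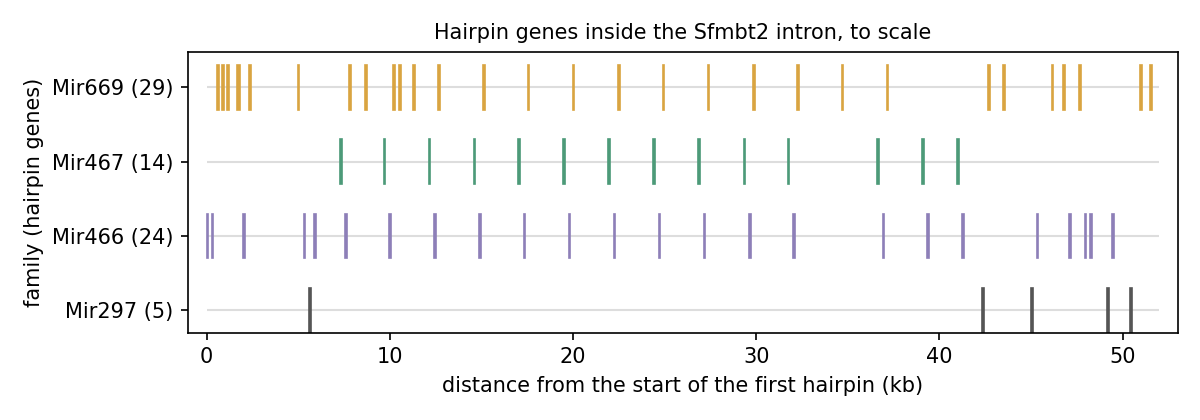
Each tick is 1 of the 72 hairpin genes inside Sfmbt2, placed by its distance in kb from the start of the first hairpin, with a line for each of the 4 families. Mir466, Mir467 and Mir669 hairpins alternate over most of the 51.6 kb, with median spacings of 2.42 to 2.45 kb within a family.

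The 10 hairpins elsewhere lay on several chromosomes. Mir466i, the hairpin of the most abundant member, was at chr13:17747473-17747593 on the plus strand, in an intron of Cdk13 and on the opposite strand to that gene. Mir466q at chr3:28419943-28420018 was in an intron of Tnik on the same strand. Introns of Gm37240, Slc30a7, Grk4 and Fxr2 held Mir466k, Mir669n, Mir467g and Mir467f, each on the opposite strand to the gene. The other four, Mir297-1, Mir467h, Mir466j and Mir466f-4, overlapped no annotated gene. By these positions 53 members belonged to Sfmbt2 hairpins only, 9 to outside hairpins only, and 5 to both (the names of miR-297a and miR-466f).

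Levels are in CPM, the reads of a miRNA scaled to a common total of reads on any listed miRNA, and depth was 1336935 to 4685712 reads per library. A level of 3 reads, the smallest taken as a detection, was 0.640 to 2.24 CPM. MiR-148a-3p alone took 46.8% to 71.4% of the reads and so sets part of every CPM value. Defining miRNAs of hepatocytes summed to 644087 to 816441 CPM, and none was at 0. That list includes miR-148a-3p, which made up most of the sum in every library. Those of brain stood apart in NC replicates 1 and 2, at 463 and 744 CPM against 44.4 to 65.2 CPM in the other four libraries. Defining miRNAs of embryonic stem cells and trophoblast, the cells the family is best known from, were 0 to 3.74 CPM in NC and 0.427 to 3.91 CPM in MAFLD, with 4 of the 6 in the list measured. These are whole livers, so fewer cells of a type and less RNA per cell cannot be told apart.

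Nearly every member was read, and most by a few reads only. A read was present in at least 1 library for 66 of the 67 members, and miR-466m-3p had none. Reads were found in all 6 libraries for 10 members and in 5 libraries for 15 more. Yet 45 members had at most 10 reads in all 6 libraries together, the median member had 8, and 25 reached 3 reads in no library. At least 3 reads in every library were found for 4 members, miR-466i-5p, miR-467a-5p, miR-467b-5p and miR-669c-5p.

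The number of members with a read was 43, 21 and 43 in NC replicates 1 to 3, and 48, 51 and 36 in MAFLD replicates 1 to 3. NC replicate 2 was the lowest, and the groups overlapped. Scaled to the depth of the shallowest library, the expected numbers were 33.7, 19.8 and 43.0 in NC and 37.2, 30.4 and 33.9 in MAFLD. At this common depth the highest value and the lowest value were both NC livers.

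The names on the list held 1612 reads, and these were concentrated in a few of them. MiR-466i-5p had 405 reads (25.1%), miR-467a-5p 276, miR-467b-5p 275 and miR-467c-5p 81, and together these 4 names had 64.3%. By mean CPM among the 1546 miRNAs they ranked 142, 188, 189 and 282. Names whose hairpins are inside Sfmbt2 held 1124 reads, names of outside hairpins 453, and names of both 35. The outside count therefore came mostly from miR-466i-5p. Names with equal or nearly equal reads, described below, enter these totals and shares once for each name. MiR-467a-5p and miR-467b-5p are among them, and no share was computed with such names merged.

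Several names had equal reads in every library, and such names were not taken as separate measurements. Names were grouped when their reads were equal in every one of the 6 libraries. With at least 10 reads, 4 such groups held 11 names. The reads of miR-466a-3p, miR-466b-3p, miR-466c-3p, miR-466e-3p and miR-466p-3p were all 3, 0 and 2 in NC and 8, 4 and 3 in MAFLD. MiR-669a-3p and miR-669o-3p were both 3, 2 and 1 in NC and 12, 10 and 6 in MAFLD. In the other two groups, miR-669a-5p equalled miR-669p-5p, and miR-466b-5p equalled miR-466o-5p.

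Of the members with at least 10 reads, 11 of 26 (42.3%) had an equal partner, against 12 of the 550 other miRNAs with as many reads (2.18%), a description with no test. Another 4 groups had under 10 reads, where equal values can arise from so few reads, among them the 3p names of miR-297a, miR-297b and miR-297c with 1 read. In all, 20 names fell in 8 groups. MiR-467a-5p and miR-467b-5p were nearly equal, with 276 and 275 reads, and they differed by 1 read, in MAFLD replicate 1. The values do not tell whether one read was counted for several names, because the reads themselves were not analysed here.

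The second strand of a hairpin is usually degraded, and the reads of the 2 arms show which one was kept. Both arms were listed for 25 names. The 5p arm had more reads for 9 names by the 95% Wilson interval of its share, which covers counting error only, and the 3p arm for 3. For the other 13 the interval spanned 50%.

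The abundant names were almost purely 5p. MiR-466i had 405 reads of the 5p arm and 7 of the 3p arm (98.3%, interval 96.5% to 99.2%), miR-467a 276 and 6 (97.9%), miR-467b 275 and 1 (99.6%), and miR-467c 81 and 2 (97.6%). For miR-466i the 2 arms had 3 and 2 reads in NC replicate 1, and 123 and 0 in NC replicate 3. MiR-669c was less one-sided over the 6 libraries, with 39 and 14 reads (73.6%, 60.4% to 83.6%). MiR-669a went the other way, with 14 reads of the 5p arm and 34 of the 3p arm (29.2%, 18.2% to 43.2%), as did miR-669o with 4 and 34 (10.5%) and miR-466e with 5 and 20 (20.0%). The 3p reads of miR-669a and miR-669o were the equal ones above, so the shares of this pair are not separate from each other. Those of miR-466e were in a different group of equal reads, with the 3p names of miR-466a, miR-466b, miR-466c and miR-466p. The share of miR-466e is therefore not separate from theirs. Over all members the 32 names of 5p arms held 1301 reads, the 26 names of 3p arms 260, and the 9 names with no arm 51.

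**Figure D2:**
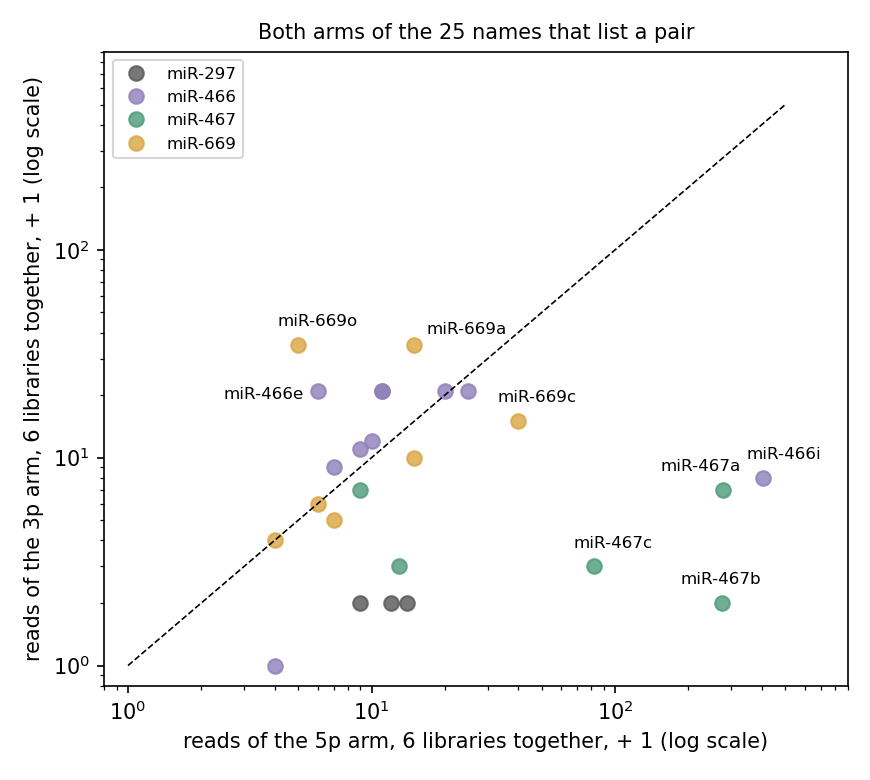
Each point is 1 of the 25 names with both arms listed, with reads of the 5p arm over the 6 libraries plus 1 on the x axis and of the 3p arm plus 1 on the y axis, both on log scales, and the dashed line marks equal reads. MiR-466i, miR-467a, miR-467b and miR-467c lie far on the 5p side, while miR-669a, miR-669o and miR-466e lie above the line.

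MiR-466i-5p was the most abundant member, and its level differed widely between livers of the same diet. Its level was 1.18, 14.0 and 92.0 CPM in NC replicates 1 to 3, from 3, 22 and 123 reads. In MAFLD replicates 1 to 3 it was 20.6, 12.6 and 93.2 CPM, from 55, 59 and 143 reads. The highest NC liver was 78.2-fold above the lowest, and the highest MAFLD liver 7.40-fold, so the spread within each diet exceeded the difference between diets. The 2 highest libraries, NC replicate 3 and MAFLD replicate 3, were also the shallowest, at 1336935 and 1534569 reads, and the part of depth in this level was not tested. The log2 fold change of MAFLD against NC was 1.06 (SE 1.00, limma adjusted p = 0.570), and 2-sided exact permutation gave p = 0.6, where 3 against 3 cannot go below 0.1. Without NC replicate 1 the log2 fold change was -0.30, and on the recovered reads it was 0.070 in edgeR and 0.096 in DESeq2.

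The miR-467 5p names were steadier. MiR-467a-5p was at 23.5, 17.2 and 5.98 CPM in NC and 29.6, 15.6 and 18.9 CPM in MAFLD, from 8 to 79 reads per library. NC replicate 3 was the low library, and the other five lay between 15.6 and 29.6 CPM, with the diets overlapping. The highest library was 4.95-fold above the lowest. The log2 fold change was 0.57 (SE 0.54, limma adjusted p = 0.570), and without NC replicate 3 it was 0.033. MiR-467b-5p had the same values but for 29.3 CPM in MAFLD replicate 1, and it is not a second measurement.

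MiR-467c-5p, which has a single hairpin, was likewise lowest in NC replicate 3, at a lower level. It was at 8.24, 9.56 and 0 CPM in NC and 6.00, 4.91 and 3.91 CPM in MAFLD. No read was found in NC replicate 3, whose depth allows up to 2.24 CPM, and both other NC livers exceeded every MAFLD liver. The log2 fold change was 0.35 (SE 0.76, limma adjusted p = 0.827) and turned to -0.75 without NC replicate 3. The mean level lay the other way, at 5.93 ± 5.18 CPM in NC and 4.94 ± 1.05 CPM in MAFLD (SD, n = 3 each).

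MiR-669a-3p, equal in every library to miR-669o-3p, had the largest log2 fold change of the tested members on the log2(CPM + 1) scale. It was at 1.18, 1.27 and 0.748 CPM in NC and 4.50, 2.13 and 3.91 CPM in MAFLD. Each MAFLD liver exceeded every NC liver, with means of 3.52 ± 1.23 CPM and 1.07 ± 0.280 CPM (SD, n = 3 each). The log2 fold change was 1.10 (SE 0.56, limma adjusted p = 0.304), and 2-sided exact permutation gave p = 0.1, the smallest this design allows. The difference did not pass the threshold, and it rests on 1 to 12 reads per library. The 2 defining miRNAs of endothelium, both measured and neither at 0, summed to 4710 to 6587 CPM in NC and 7659 to 10155 CPM in MAFLD, and their part in this difference was not tested. Endothelium was the only cell-type list without overlap of the diets. Leukocyte miRNAs summed to 135 to 247 CPM in NC and 190 to 353 CPM in MAFLD. Those of stellate cells summed to 396 to 1088 CPM in NC and 937 to 1355 CPM in MAFLD. Among all 501 miRNAs tested, 15.2% had MAFLD livers entirely above NC livers, and the 2 names here, one set of reads, were the only tested members that did.

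The 5p arm of miR-669a, miR-669a-5p, equal to miR-669p-5p, was at 0, 0 and 1.50 CPM in NC and 1.88, 0.854 and 1.95 CPM in MAFLD. The depth of the 2 NC livers without a read allows up to 1.18 and 1.91 CPM, which reaches into the MAFLD range. The log2 fold change was 0.89 (SE 0.63, limma adjusted p = 0.446). MiR-669o-5p, the 5p arm of the other name, had 0, 2 and 2 reads in NC and none in MAFLD, under 3 reads in every library. MiR-669c-5p was at 1.57, 1.91 and 3.74 CPM in NC and 5.63, 1.92 and 1.95 CPM in MAFLD, with the diets overlapping. Its log2 fold change was 0.23 (SE 0.58, limma adjusted p = 0.859), and without MAFLD replicate 1 it was -0.16.

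For miR-466a and miR-466p the 3p and the 5p names had values on opposite sides of 0. The 3p reads, equal for the names of miR-466a, miR-466b, miR-466c, miR-466e and miR-466p, gave 1.18, 0 and 1.50 CPM in NC and 3.00, 0.854 and 1.95 CPM in MAFLD. The diets overlapped, and the log2 fold change was 0.67 (SE 0.62, limma adjusted p = 0.566). MiR-466p-5p was at 4.71, 1.91 and 0.748 CPM in NC and 0.750, 1.07 and 0.652 CPM in MAFLD, with a log2 fold change of -0.76 (SE 0.62, limma adjusted p = 0.500). For miR-466a-5p the levels were 3.53, 1.91 and 0.748 CPM in NC and 0.750, 0.640 and 0.652 CPM in MAFLD, again with a log2 fold change of -0.76 (SE 0.60, limma adjusted p = 0.488). NC replicate 1 was the highest library for both 5p names, and NC replicate 3 lay among the MAFLD livers. The difference between the 2 arms was not tested.

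**Figure D3:**
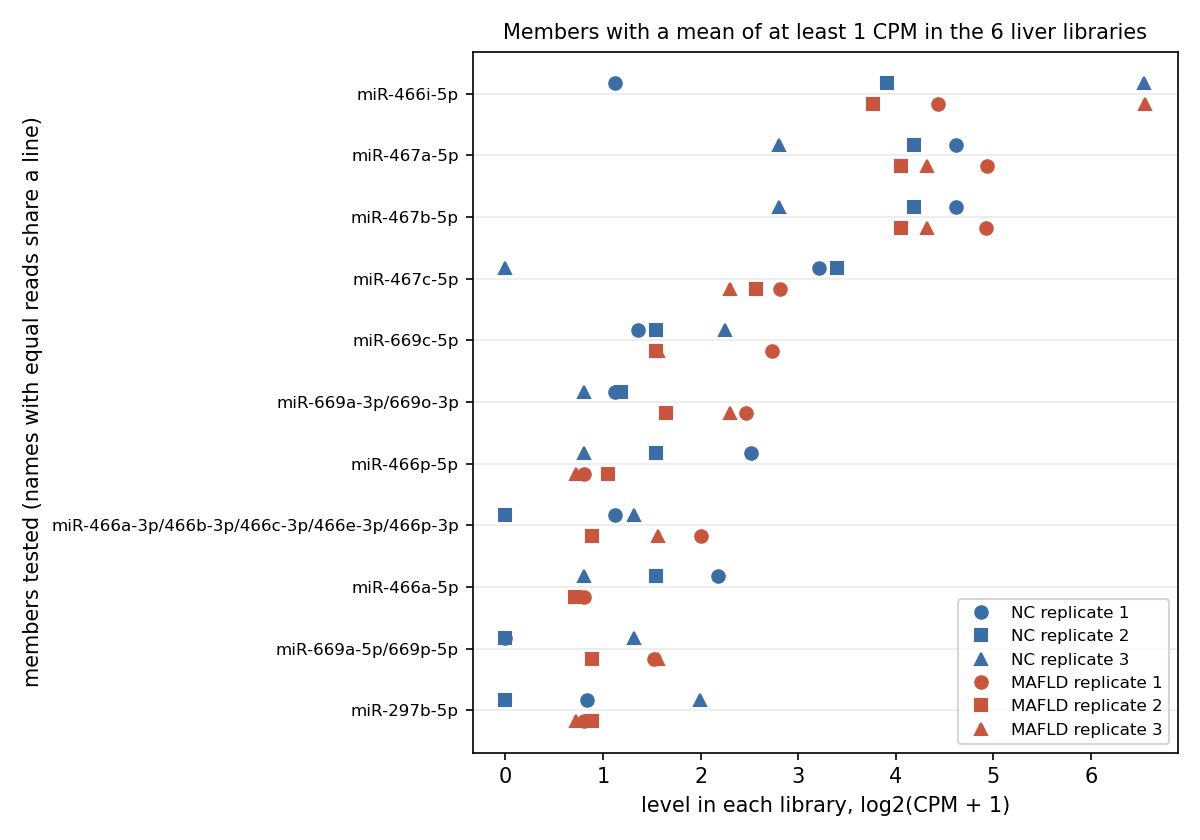
Each point is the level of a tested member in 1 library, as log2(CPM + 1), with NC in blue and MAFLD in red, a shape for each replicate number, and 1 line for names with equal reads. MiR-466i-5p spans the widest range, and miR-669a-3p with miR-669o-3p is the only line where the colours do not overlap.

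Of the 67 members, 17 had a mean of at least 1 CPM and were tested, and they held 11 distinct sets of reads. None passed an adjusted p of 0.05 in limma and none had an unadjusted p under 0.05, while edgeR and DESeq2 on the recovered reads also passed 0 at the adjusted threshold and put 1 and 0 under the unadjusted one. Over all 501 miRNAs tested, 0.2% passed the adjusted threshold. The unadjusted threshold was passed by 13.4% upward and 4.59% downward. Adjusted p for the members was from 0.304 to 0.931, and the smallest unadjusted p was 0.0683. Of the 17, 14 had a log2 fold change above 0 and 3 below, but counted once for each distinct set of reads this was 8 above and 3 below (72.7%), close to the 71.3% above 0 among all 501. The median log2 fold change of the 17 was 0.67, the value of the 5 equal miR-466 3p names, and that of all 501 was 0.43. With equal reads counted once the medians were 0.56 and 0.42, and with near-equal names also merged 0.46 and 0.42. With the median ratio of all miRNAs as the scale in place of the CPM total, the medians of the 17 and of all 501 were 0.43 and 0.043. This 0.43 was again the value of the 5 equal miR-466 3p names, and equal reads were not merged under this scale. The medians were 1.60 and 0.52 with a pseudocount of 0.1, and 0.23 and 0.23 with a pseudocount of 5. With no filter they were 0.090 for 66 members and 0.15 for all miRNAs fitted.

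**Figure D4:**
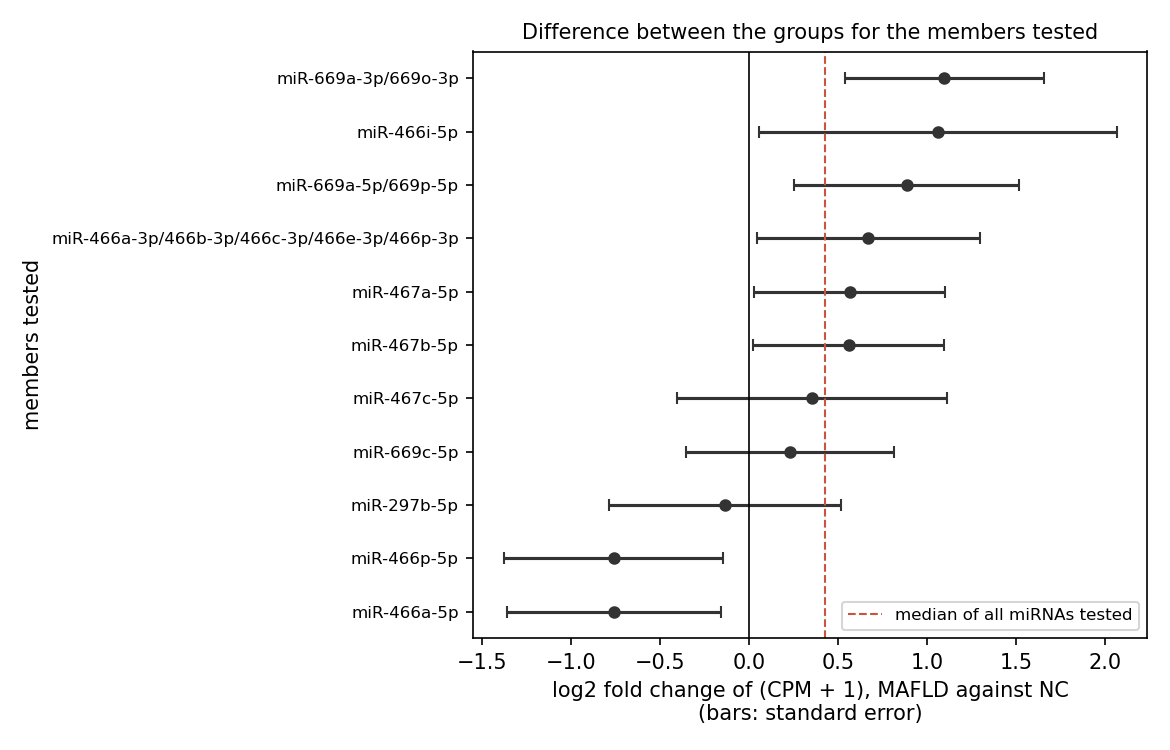
The x axis is the log2 fold change of (CPM + 1) in MAFLD against NC for the 17 tested members, drawn once for names with equal reads, with bars of 1 standard error. The solid line marks 0 and the dashed line the median of all 501 miRNAs, 0.43. Values run from -0.76 to 1.10.

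The remaining 50 members were below 1 CPM on average and were not tested. Among them miR-466f-3p, which has hairpins both inside and outside Sfmbt2, was at 0.784, 1.27 and 2.24 CPM in NC and 0.375, 0.427 and 0 CPM in MAFLD, so that each NC liver exceeded every MAFLD liver. It had 2, 2 and 3 reads in NC, and the depth of MAFLD replicate 3 allows up to 1.95 CPM, above NC replicates 1 and 2. Among the 501 miRNAs tested, NC livers lay entirely above MAFLD livers in 4.19%, and MAFLD livers entirely above NC livers in 15.2%. These shares do not cover miRNAs under 1 CPM on average, such as miR-466f-3p and miR-467f. MiR-467f, one of the sequences shown above, had no read in NC and 3, 1 and 1 reads in MAFLD, at or under the level of 3 reads in every library. Both were picked out after their values were seen. The other sequences shown above had overlapping diets, including miR-669n, which had 1 read in each NC library and 2, 5 and 1 in MAFLD.

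The summed level of the family did not separate the diets. It was 98.1, 77.7 and 161 CPM in NC and 143, 78.8 and 179 CPM in MAFLD, which is 0.00777% to 0.0179% of the reads. The lowest liver of each diet, replicate 2, and the highest, replicate 3, were close to those of the other diet. The means were 112 ± 43.3 CPM and 134 ± 50.6 CPM (SD, n = 3 each), a log2 ratio of 0.25 that is within the spread. MiR-466i-5p made up the high values of replicate 3 in both diets.

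Without miR-466i-5p the sum was 96.9, 63.7 and 68.8 CPM in NC and 123, 66.2 and 85.4 CPM in MAFLD. Replicate 1 was then the highest of each diet, and the ranges still overlapped (76.5 ± 17.9 CPM and 91.4 ± 28.7 CPM). The 58 names with a hairpin inside Sfmbt2 gave 73.0 ± 17.3 CPM in NC and 87.8 ± 28.6 CPM in MAFLD, a log2 ratio of 0.27. Counting each set of equal reads once left 60 names and a log2 ratio of 0.18, and also merging miR-467a-5p with miR-467b-5p left 59 names and 0.12.

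The order of the livers was not the same in each family. MiR-467 was at 57.7, 46.5 and 16.5 CPM in NC and 69.0, 38.8 and 46.9 CPM in MAFLD, lowest in NC replicate 3. MiR-669 was at 7.84, 9.56 and 20.9 CPM in NC and 24.4, 13.0 and 18.9 CPM in MAFLD, with NC replicate 3 the highest NC liver. MiR-466 without miR-466i-5p was at 28.6, 7.65 and 24.7 CPM in NC and 26.6, 12.4 and 17.6 CPM in MAFLD. Group means were 40.2 ± 21.3 and 51.6 ± 15.6 CPM for miR-467, and 12.8 ± 7.12 and 18.8 ± 5.69 CPM for miR-669 (SD, n = 3 each), and the diets overlapped for each family. MiR-297 stayed at or below 6.73 CPM, with no read in NC replicate 2. Its single tested name, miR-297b-5p, was at 0.784, 0 and 2.99 CPM in NC and 0.750, 0.854 and 0.652 CPM in MAFLD, with overlapping diets and a log2 fold change of -0.14 (SE 0.65, limma adjusted p = 0.931).

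**Figure D5:**
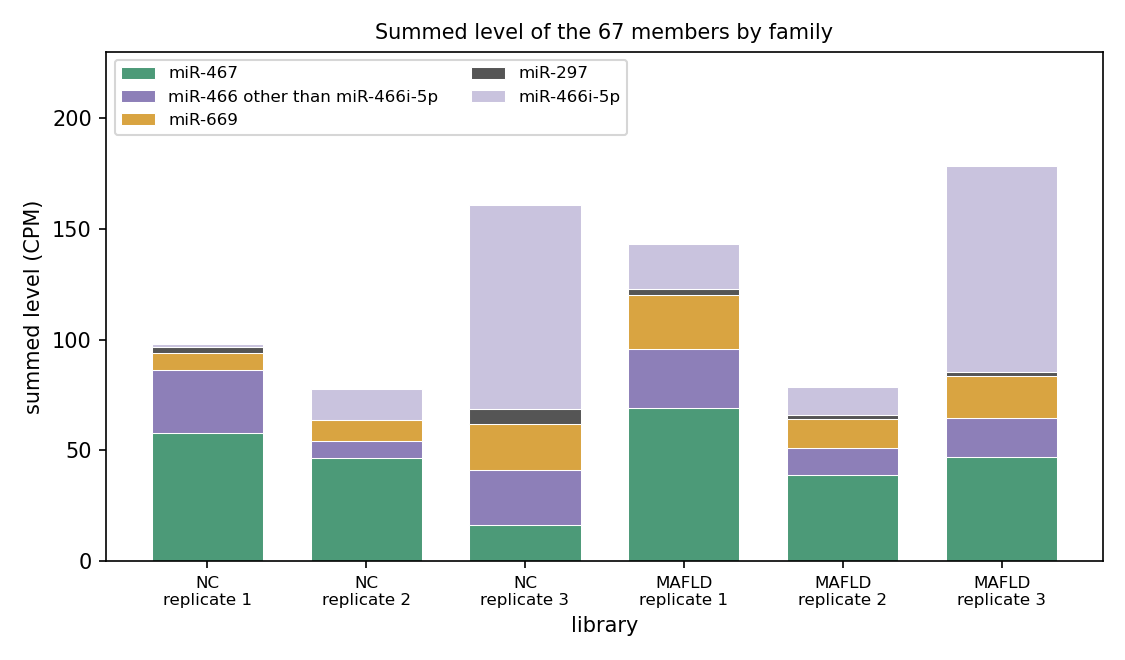
Bars give the summed CPM of the 67 members in each of the 6 libraries, stacked by family, with miR-466i-5p drawn apart from the rest of miR-466. MiR-466i-5p is the largest block in NC replicate 3 and MAFLD replicate 3, and miR-467 is the largest block in the other four libraries.

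Other imprinted miRNAs and other repeat-like miRNAs were set beside the family. Of 51 miRNAs from other imprinted regions, 28 were tested, 4 were higher and 24 lower by sign alone, and none passed the adjusted threshold. At an unadjusted p under 0.05 in limma, 12 were lower and 1 was higher, against 4.59% and 13.4% of all miRNAs tested. Their median log2 fold change was -1.17. They summed to 575, 1223 and 624 CPM in NC and 315, 161 and 386 CPM in MAFLD. This sum was highest in NC replicate 2, and NC replicate 3 exceeded NC replicate 1. The brain miRNAs were highest in NC replicates 1 and 2, as given above, and only 50.1 CPM in NC replicate 3. Their part in the values of the imprinted miRNAs was not tested. A run of at least 4 UG dinucleotides was also held by 5 listed miRNAs outside the family, of which 3 were tested and none passed. The most abundant, miR-574-5p, has the sequence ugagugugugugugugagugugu and was at 12.6, 7.01 and 32.2 CPM in NC and 35.3, 21.6 and 30.0 CPM in MAFLD. Its log2 fold change was 0.94 (SE 0.54, limma adjusted p = 0.351). MiR-3082-5p was highest in NC replicate 3 and MAFLD replicate 3, at 9.72 and 5.21 CPM, the same 2 libraries in which miR-466i-5p was highest.

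The miRNAs whose log2(CPM + 1) followed the summed family level most closely over the 6 libraries were miR-328-3p (Pearson r = 0.94, Spearman rho = 0.71), miR-185-5p (r = 0.92, rho = 0.71), miR-186-5p (r = 0.92, rho = 0.77), miR-664-3p (r = 0.89, rho = 0.77) and miR-99b-3p (r = 0.89, rho = 0.71). They were the top 5 of 235 candidates at 10 CPM or more, and the points share the same libraries and totals. With miR-466i-5p left out of the sum, none of these 5 was among the 5 closest, which were led by miR-27a-3p (r = 0.84, rho = 0.83) and miR-106b-3p (r = 0.71, rho = 0.83).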

How the data were processed

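Small RNA libraries from liver were sequenced, 1 for each of 3 NC and 3 MAFLD mice, after treatment that removes RNA modifications blocking adapter ligation and selection of short inserts. The authors deposited CPM values of 1546 mature miRNAs, scaled by the reads that any listed miRNA received in that library. The submitters' processing notes name FastQC, cutadapt, Bowtie, edgeR and GRCm38 without versions. The labels' protocols also describe HepG2 cells, but each sample is labelled as mouse liver. How reads matching several names were assigned is not given in the sources used here.

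Whole reads were recovered as multiples of the smallest nonzero value in a library, and 100% lay no further than 0.02 from an integer. The depth was 1336935 to 4685712 reads, and 3 reads were taken as the floor. Wilson intervals are at 95%. Intervals and floors cover counting error only.

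The diets were compared in R 4.3.3 with limma 3.58.1 (eBayes, trend) on log2(CPM + 1), a scale that understates the change of low miRNAs, over 501 miRNAs whose mean reached 1 CPM. P-values were 2-sided and adjusted over all 501 by the Benjamini-Hochberg method, with a threshold of 0.05. Exact permutation tests used scipy 1.17.1. Nothing states whether the mice were housed or processed separately, so p-values measure only the spread between these livers. Only the limma, edgeR and DESeq2 fits were also run on simulated reads, drawn independently for each miRNA. Shared reads, permutation tests, arm intervals and sums were not simulated.

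Members named in the text were the 12 with the highest mean CPM, those past the threshold or, up to 6 in each direction, at an unadjusted p under 0.05, and the other arm of each where it had a read. The miRNAs closest to the family sum were the 5 with the highest Pearson r. Any other name was picked once values were known. The members and lists were chosen with earlier results of these data known.

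Hairpin positions came from RefSeq and GENCODE annotation of GRCm38 and were not used to count reads. Equal reads were judged at 10 reads or more.

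The choices varied were the pseudocount (0.1 or 5), the filter (none, or 10 CPM), the scaling (median-ratio, or CPM recomputed without miR-148a-3p), the trend in limma, the test on recovered reads (the quasi-likelihood test of edgeR 4.0.16 after TMM, or DESeq2 1.42.0), a replicate block, leaving out any single library, and counting names with equal reads once. Merging near-equal names, and sums without miR-466i-5p or without outside hairpins, were added after seeing the data. The replicate numbers come from different mice. Deviations of same-numbered libraries from their group means had correlations of 0.012, -0.020 and -0.046, so the numbers were not taken as pairs.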

Additional observations from a re-analysis of the deposited data

How the results depend on the processing

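No alternative passed a member at an adjusted p of 0.05, and the lowest adjusted p of a named member was 0.0588, for miR-466i-5p without NC replicate 3. At an unadjusted p under 0.05 the count of 0 became 1 with no filter (miR-466i-5p), 2 without the trend (miR-669a-3p and miR-669o-3p, one set of reads) and 1 with edgeR (miR-466a-5p, log2 fold change -2.14). With a library left out it was 0 to 3, the 3 without NC replicate 3 being miR-466i-5p, miR-669a-5p and miR-669p-5p. With the replicate number as a block it was 0. The median log2 fold change of 0.67 became 1.60 with a pseudocount of 0.1, 0.23 with a pseudocount of 5 and 0.090 with no filter, which tests 66 members. With a library left out it was 0.26 (without NC replicate 2) to 0.97 (without MAFLD replicate 2), and with the replicate block 0.67. The log2 ratio of the summed CPM, 0.25, was -0.22 under median-ratio scaling, -0.080 without miR-148a-3p, and -0.015 (without MAFLD replicate 3) to 0.60 (without NC replicate 3) with a library left out, against a spread between libraries of 0.57, which the value without NC replicate 3 exceeds. Among the log2 fold changes of 15 named members, 214 of 228 alternatives kept the sign and 14 turned it. MiR-467a-5p was -0.21 in edgeR and -0.27 in DESeq2, and miR-467b-5p -0.22 and -0.27. MiR-467c-5p was -0.16 under median-ratio scaling, -0.90 in edgeR, -0.99 in DESeq2 and -0.75 to 0.95 with a library left out. MiR-669c-5p was -0.085 under median-ratio scaling, -0.023 without miR-148a-3p, -0.0055 in edgeR, -0.010 in DESeq2 and -0.16 to 0.49 with a library left out. MiR-466i-5p was 0.070 in edgeR, 0.096 in DESeq2 and -0.30 to 2.40 with a library left out. MiR-669a-5p exceeded miR-669a-3p with a pseudocount of 0.1 (2.64 against 1.60), in CPM without miR-148a-3p (1.37 and 1.06), under median-ratio scaling (0.78 and 0.74), in edgeR (1.42 and 1.09) and in DESeq2 (1.58 and 1.09), and also without NC replicate 3 (1.33 and 0.98). The cause of these changes was not tested. Depth limits the low members: 25 reached 3 reads in no library, so a difference in them was not detectable.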
